A study of Mus musculus with 8 samples.

Results

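The 45 genes described here are neuronal genes known as targets of the repressor REST, together with Rest itself. They were read from arrays of nephron progenitors labelled as null for Hdac1 and Hdac2, and of wildtype ones. They were chosen by symbol, through the RefSeq accession printed for each array probe, and the brightest Cy5 probe stood for each gene. All 45 had a probe. Of these, 38 passed the filter on dim probes and were tested among 22662 genes.

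REST is a zinc-finger protein that binds a DNA element called RE1, found near many neuronal genes. It recruits Sin3 complexes at its amino end and CoREST at its carboxyl end. HDAC1 and HDAC2, histone deacetylases, are subunits of both, and outside the nervous system these complexes are known to hold neuronal genes at low RNA levels.

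The mutant group carried Six2CreEGFP+; HDAC1&2f/f, and the wildtype group carried Six2CreEGFP+; HDAC1&2+/+. Both groups were C57BL/6 at embryonic day 15.5, and both carry the Six2-driven Cre and EGFP fusion, whose fluorescence was used to sort Six2+ cells from kidneys. The floxed alleles are therefore open to deletion where Six2 drives, or has driven, Cre. Each group had 4 pools, each on its own array, with the pool's RNA in the Cy5 dye and wildtype pool 1 in the Cy3 dye of every array. The wildtype pool 1 array thus set that RNA against itself, so its log2 ratios, which ran from -0.26 to 0.24 over the members tested, hold dye and measurement differences and no difference between pools. In both genotypes, pools 3 and 4 were as alike as repeated Cy3 readings of a single RNA on the arrays other than wildtype pool 2 and were averaged, leaving 3 mutant samples and 3 wildtype samples. The labels do not say how many embryos made up a pool, so the p-values measure the spread between these samples, which may be technical in part.

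In the Cy5 channel, 28148 to 33981 probes stood well above background on 7 arrays, and 48625 did on the wildtype pool 2 array. In Cy3, the same RNA on every array, 47828 did on that array, against 29616 to 34466 on the others. The count was thus raised in both dyes there, and that array had 2045 outlier spots, against 183 to 247 on the others. Probes of the same gene disagreed most on the mutant pool 1 array, where their spread was 0.245 log2 units, against 0.0826 to 0.142 on the other arrays. The genotypes occupied different rows of the slide, so row and genotype cannot be told apart. Hdac1 log2 ratios ran between -0.20 and -0.07 in mutant samples and between 0.14 and 0.20 in wildtype samples, a difference of -0.30 ± 0.09 (SE; adjusted p = 0.476), and Hdac2 differed by -0.13 ± 0.14 log2 units. Whether either probe reads a deleted exon is not known here, so neither value checks the deletion. Six2, the gene that marks the sorted cells, differed by -0.13 ± 0.14 log2 units. Cited1, another marker of uncommitted nephron progenitors, fell by 2.72 ± 0.13 log2 units in mutant samples (adjusted p = 0.00279 in the limma fit).

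Promoter sequence shows which of these genes carry pieces of the RE1 element close to their start. RefSeq windows on build GRCm38.p6, running 250 bases before to 50 bases after a transcript start, were at hand for 33 of the 45 genes. The element has a left part, here searched as CAGCACC, and a right part, here searched as GGACAG. Both strands were read, and matches to the motifs overlapped in no member window. CAGCACC occurred in the windows of 7 of the 33 genes (21.2%), against 8.14% of the 27025 genes with a window: Chgb, Kif5c, Nsg2, Scg2, Syn1, Tubb3 and Unc13a. GGACAG occurred in 11 of the 33 (33.3%), against 24.7% of all genes with a window. Members had more windows per gene than other genes, 57 in all. Per window, CAGCACC was in 12.3% of member windows against 7.14% of all windows, and GGACAG in 22.8% against 22.2%. No member window had both parts 2 bases apart, the usual RE1 spacing, which 12 of all 32851 windows had. A match is a description of letters, not evidence of binding, and many RE1 elements lie outside such windows.

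These sequences are shown because Snap91 had the largest drop among the genes, Scg2 carries both parts side by side, and Nsg2, higher in all mutant samples, carries the left part in more than 1 place. Capitals mark CAGCACC or GGACAG or their reverse complements, and each sequence reads 5′ to 3′ on the gene's strand. The Snap91 stretch is chr9:86880709-86880958 on the minus strand, and the Scg2 stretch is chr1:79440027-79440276 on the minus strand. The Nsg2 sites are chr11:32000490-32000518 and chr11:32000621-32000649 on the plus strand, 199 and 68 bases before an annotated start.
Snap91 upstream of the start: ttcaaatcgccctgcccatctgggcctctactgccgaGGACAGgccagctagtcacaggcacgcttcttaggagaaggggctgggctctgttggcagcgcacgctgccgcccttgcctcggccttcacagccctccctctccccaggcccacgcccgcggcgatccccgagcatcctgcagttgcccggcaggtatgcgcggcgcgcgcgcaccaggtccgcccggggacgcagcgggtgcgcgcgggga
Scg2 upstream of the start: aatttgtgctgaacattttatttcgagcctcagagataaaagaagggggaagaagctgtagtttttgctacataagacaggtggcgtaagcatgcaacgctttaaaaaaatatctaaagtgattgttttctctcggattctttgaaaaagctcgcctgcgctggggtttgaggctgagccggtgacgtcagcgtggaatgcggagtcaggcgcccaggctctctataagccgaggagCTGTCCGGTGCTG
Nsg2 site farther from the start: gctgcttttttCAGCACCacgctctggct
Nsg2 site nearer to the start: taaccactcccCAGCACCctcccagccct
The Snap91 window held 1 right part and no left part. In Scg2, whose product is packed into secretory granules, both parts abut on the opposite strand directly before the start.

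Across the 38 genes tested, single genes stood far apart from wildtype in both directions while most lay near 0. In the limma fit, with p-values adjusted by Benjamini-Hochberg across the whole table, 1 of the 38 passed an adjusted p of 0.05, which was Snap91, lower in mutant samples. Of all genes 0.0441% passed, with 0.0221% higher and 0.0221% lower in mutant samples. With the pool number as a block, 0.15% of all genes passed (0.115% lower in mutant samples), and the member that did was Pcsk2, lower, in place of Snap91. At an unadjusted p under 0.05 there were 9 members, 6 higher and 3 lower in mutant samples, or 23.7% of those tested against 7.24% of all genes (4.46% higher and 2.78% lower). Every mutant sample lay above every wildtype sample for 6 members, against 8.6% of all genes. Every mutant sample lay below every wildtype sample for 4 members, against 5.86% of all genes. In all 3 pool pairs the mutant sample was higher for 12 members, against 22.6% of all genes, and lower for 7, against 17.1%. Counting the 8 arrays as separate samples, with pools 3 and 4 apart, 8 members passed the adjusted threshold, against 1.13% of all genes. Mapk8ip2, Celf4, Stmn2, Nsg2 and Bex2 were higher in mutant samples, and Nefl, Pcsk2 and Snap91 were lower. That fit takes pools 3 and 4 as independent, although they differed no more than repeated readings of a single RNA. Its p-values may therefore be too small.

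The members' differences ran wider than those of other genes, with no common direction. The members were chosen with earlier results of these data known. The shares here and above therefore describe these genes and do not test REST targets as a class. Their median difference was 0.05 log2 units, against 0.0017 over all genes tested, and 24 of 38 had a higher mean in mutant samples, against 50.5% of all genes. The median absolute difference was 0.192 log2 units for the members, against 0.117 for all genes. A difference of 0.5 log2 units or more was seen in 8 members (21.1%), against 3.28% of all genes. These 8 were Mapk8ip2, Celf4, Stmn2 and Nsg2, higher in mutant samples, and Snap91, Pcsk2, Nefl and Dcx, lower in mutant samples.

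**Figure D1:**
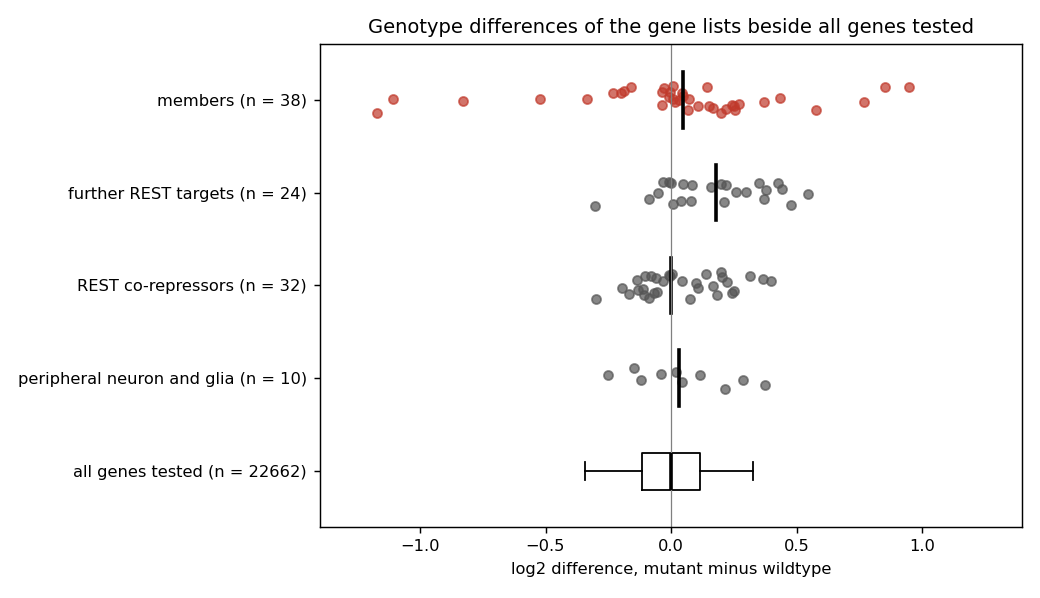
Log2 differences, mutant minus wildtype, of the 38 members tested and of 3 other gene lists (a point per gene, a bar at the median), above a box plot of all 22662 genes tested whose box spans the quartiles and whose whiskers reach the 5th and 95th percentiles (-0.34 and 0.33). The members run from -1.17 to 0.95 around a median of 0.05.

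The plot of the lists beside all genes shows the members spread past the whiskers on either side, with most of their points inside. The median of the further REST targets lies to the right of 0, at 0.18, while single genes of that list run from -0.30 to 0.54. The list plotted as co-repressors, which also holds some proteins that act on REST, has its median near 0.

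Rest encodes the repressor itself. Its log2 ratios were -0.98, 0.24 and 0.13 in mutant samples (pool 1, pool 2, and the mean of pools 3 and 4, the order used throughout), against 0.02, 0.20 and 0.19 in wildtype samples. The groups overlapped, and mutant pool 1 was the single low sample. The difference was -0.33 ± 0.31 (adjusted p = 0.827), with a 95% interval of -1.06 to 0.39, and without mutant pool 1 it was 0.05. A dimmer Rest probe read 0.37, -0.29 and -0.16 in mutant samples, against 0.11, -0.31 and -0.14 in wildtype samples, so the probes of Rest went opposite ways in mutant pool 1.

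A list of 32 genes, all tested, held proteins that REST recruits and some that act on REST itself. Prickle1, Btrc, Fbxw11 and Usp7 are of the latter kind. None of the 32 passed the adjusted threshold. At an unadjusted p under 0.05, which 7.24% of all genes had, there were Sin3a and Hdac1. Sin3a, a scaffold of the amino-end complex, was higher by 0.31 ± 0.10 log2 units and Hdac1 was lower. The list's median was -0.0004 log2 units, with 16 of 32 genes higher on average in mutant samples, against 50.5% of all genes. Its widest positive differences were Prickle1 at 0.40 ± 0.24 and Hdac3, a deacetylase of other co-repressor complexes, at 0.37 ± 0.26. The widest negative ones were Hdac1, given above, and Smarce1, a chromatin-remodelling subunit, at -0.19 ± 0.15. In mutant samples Prickle1 read 0.71, -0.21 and 0.10, and Hdac3 read 0.86, -0.03 and -0.10. Both were highest in mutant pool 1, the array whose probes disagreed most, and higher in the mutant sample of all 3 pool pairs. Rcor1, the CoREST scaffold, differed by 0.18 ± 0.14, and Kdm1a, its histone demethylase, by 0.04.

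Mapk8ip2 and Mapk8ip1 encode scaffold proteins that gather the kinases of the JNK pathway in neurons. Mapk8ip2 had the highest difference of all members. Its log2 ratios were 1.20, 0.50 and 0.90 in mutant samples, against 0.06, -0.19 and -0.12 in wildtype samples. All mutant samples were higher than all wildtype samples, by 0.95 ± 0.18 (1.93-fold; adjusted p = 0.247, and 0.0675 with the pool block). Mapk8ip1 differed by 0.26 ± 0.16 with overlapping groups. It read 0.63 in mutant pool 1, the array whose probes disagreed most, and 0.07 and 0.13 in the other mutant samples.

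The RNA-binding members regulate splicing, stability and translation of neuronal messages. Celf4, which binds and restrains messages of excitatory neurons, had log2 ratios of 0.97, 0.60 and 0.61 in mutant samples, against -0.02, -0.30 and -0.05 in wildtype samples. The groups did not overlap, and the difference was 0.85 ± 0.14 (1.80-fold; adjusted p = 0.164, and 0.065 with the block). A separate Celf4 probe gave 0.87 ± 0.15 and parted from the brighter probe most in mutant pools 3 and 4, at 0.76. Its paralogue Celf5 differed by 0.24 ± 0.22, and read 0.79 in mutant pool 1 but -0.04 and 0.00 in the other mutant samples. Of the neuronal Hu proteins, Elavl3 differed by 0.01 ± 0.13, and Elavl4 by -0.19 ± 0.10, with every mutant sample below every wildtype sample. A dimmer Elavl4 probe gave -0.10 ± 0.20 with overlapping groups. Elavl3 passed the filter through mutant arrays alone.

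Members of the microtubule system differed in opposite directions. Stmn2, the stathmin that destabilises microtubules in growing axons, had log2 ratios of 0.71, 0.80 and 0.75 in mutant samples, against 0.10, -0.15 and 0.00 in wildtype samples. The mutant samples lay close together and apart from wildtype, with a difference of 0.77 ± 0.10 (1.70-fold; adjusted p = 0.11, and 0.081 with the block). Kif5c, a neuronal kinesin heavy chain that moves cargo along axons, had log2 ratios of 0.57, 0.57 and 0.33 in mutant samples, against 0.12, 0.08 and -0.03 in wildtype samples. It was higher in all mutant samples, by 0.43 ± 0.11 (1.35-fold; adjusted p = 0.363). Dcx, doublecortin, which steadies microtubules in migrating neurons, read -1.01, -0.22 and -0.61 in mutant samples, against -0.26, 0.30 and -0.31 in wildtype samples. It was lower in the mutant sample of each pool pair, but the groups overlapped, and the difference of -0.52 ± 0.24 missed the test (adjusted p = 0.736, and 0.193 with the block). The other Dcx probes gave -0.06 ± 0.18 and -0.11 ± 0.09, and the latter passed the filter through wildtype arrays alone. Tubb3, the neuronal beta-tubulin, differed by 0.20 ± 0.20, and read 0.54 in mutant pool 1 but -0.002 and -0.21 in the other mutant samples. Stmn3 differed by 0.04 ± 0.17. Stmn3 passed the filter through mutant arrays alone.

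The neurofilament genes build the intermediate filaments of axons, and their light chain stood apart from the others. Nefl, the light chain on which the polymer depends, had log2 ratios of -0.71, -0.74 and -1.12 in mutant samples, against 0.12, 0.07 and -0.27 in wildtype samples. Each mutant sample was below each wildtype sample, and the difference was -0.83 ± 0.16 (1.78-fold lower; adjusted p = 0.247, and 0.0539 with the block). Nefh, the heavy chain, read 0.54, -0.09 and 0.29 in mutant samples, against 0.18, -0.24 and -0.01 in wildtype samples. It was higher in the mutant sample of each pool pair with overlapping groups, at 0.27 ± 0.19 (adjusted p = 0.814). Nefm, the medium chain, and Ina, alpha-internexin, each differed by -0.04, with SEs of 0.20 and 0.14.

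**Figure D2:**
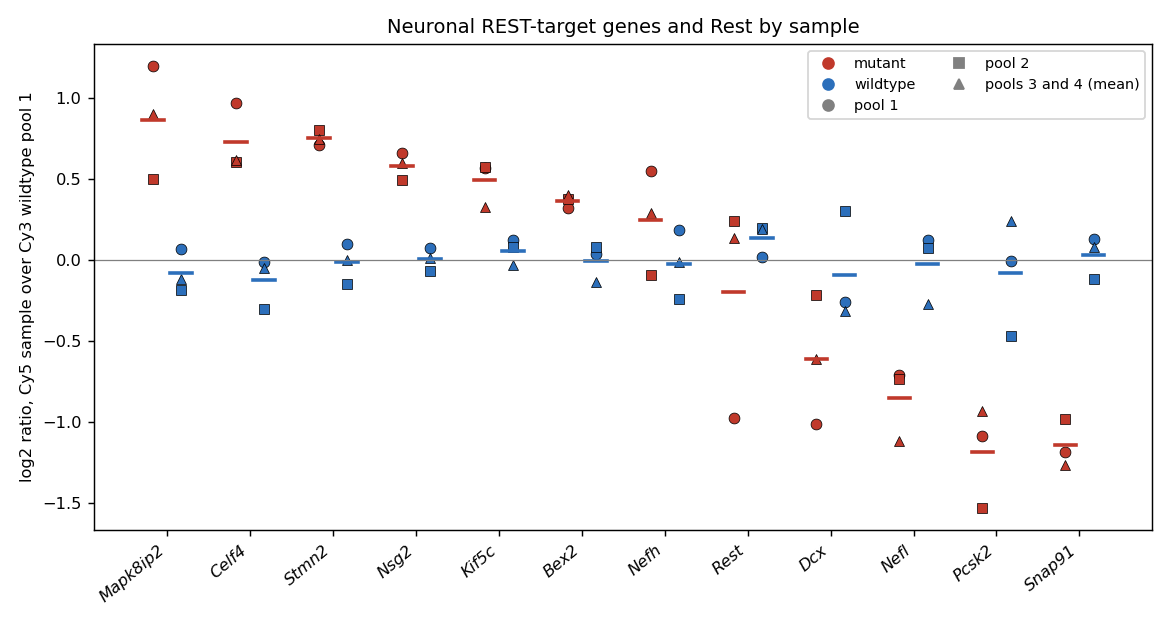
Log2 ratio of the Cy5 sample over Cy3 wildtype pool 1 for 11 members and Rest, with mutant samples in red left of wildtype samples in blue, marker shapes for the pool number and bars at the group means. From Mapk8ip2 to Bex2 every mutant sample is above every wildtype sample, and for Nefl, Pcsk2 and Snap91 every mutant sample is below.

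The plot of log2 ratios by sample shows how far each mutant sample lies from wildtype, and that Rest, Dcx and Nefh are the genes in it whose groups overlap. Its order runs from the highest difference, 0.95 for Mapk8ip2, to the lowest, -1.17 for Snap91.

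Of the 5 members grouped as membrane, adhesion, growth-cone and adaptor proteins, none passed the adjusted threshold in the limma fit. At an unadjusted p under 0.05, which 7.24% of all genes had, there were 2, Nsg2 and Bex2. Nsg2, an endosomal membrane protein of neurons, had log2 ratios of 0.66, 0.49 and 0.59 in mutant samples, against 0.07, -0.07 and 0.01 in wildtype samples. The mutant samples were all higher, by 0.58 ± 0.10 (1.49-fold; adjusted p = 0.164, and 0.0879 with the block). Bex2, a small adaptor protein encoded on the X chromosome, had log2 ratios of 0.32, 0.37 and 0.40 in mutant samples, against 0.03, 0.08 and -0.14 in wildtype samples. It too was higher in all mutant samples, by 0.37 ± 0.10 (1.29-fold; adjusted p = 0.41). Bex1 differed by 0.17 ± 0.10 and Gap43, a growth-cone protein, by 0.15 ± 0.13, while the adhesion molecule L1cam differed by -0.23 ± 0.15.

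Secretory granule members store and process neuropeptides, and Pcsk2 alone stood apart among those tested. Pcsk2, the convertase that cleaves prohormones inside granules, had log2 ratios of -1.09, -1.53 and -0.93 in mutant samples, against -0.01, -0.47 and 0.24 in wildtype samples. Pool 2 was the lowest in both groups, and every mutant sample was below every wildtype sample. The difference was -1.11 ± 0.22 (2.15-fold lower; adjusted p = 0.273 in the limma fit). With the pool number as a block its SE was 0.08 and its adjusted p 0.0325, and leaving out any pool pair moved that p to between 0.0604 and 0.285. A dimmer Pcsk2 probe, well above background on no mutant array and on 3 wildtype arrays, gave -0.35 ± 0.15. It passed the filter through wildtype arrays alone, so it is no separate check. Its groups overlapped, and in pool 1 it read -0.06 in the mutant sample and -0.15 in the wildtype sample. The granins and the growth factors stayed nearer 0: Vgf -0.20 ± 0.14, Chga -0.16 ± 0.10, Chgb 0.01 ± 0.13, Scg3 0.03 ± 0.09 and Bdnf 0.11 ± 0.13 log2 units.

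Among the genes of synaptic vesicle release, Snap91 was the single member to pass the main test. Snap91 encodes AP180, an adaptor that assembles clathrin on synaptic vesicle membrane during recycling. Its log2 ratios were -1.19, -0.98 and -1.26 in mutant samples, against 0.13, -0.12 and 0.08 in wildtype samples. The groups were far apart and each was tight, at -1.14 ± 0.15 in mutant samples and 0.03 ± 0.13 in wildtype samples (SD, n = 3 each). Snap91 fell by 1.17 ± 0.12 log2 units (2.25-fold lower; 95% interval -1.45 to -0.89; adjusted p = 0.0498 in the limma fit). Its adjusted p lay just inside the threshold and was 0.0606 with the block. Leaving out single samples gave differences of -1.25 to -1.11 with adjusted p-values of 0.0718 to 0.453, so the size held and the call was lost each time. A single probe represented Snap91.

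The other vesicle genes lay near 0. Stx1a and Vamp2, which with Snap25 form the SNARE complex that fuses vesicles, differed by 0.25 ± 0.15 and 0.07 ± 0.12, and Snap25 differed by -0.03 ± 0.09 with a 95% interval of -0.24 to 0.18. Cplx2, a complexin that clamps that complex, differed by 0.22 ± 0.12, and its other probes gave 0.29, 0.11 and 0.02. The calcium sensors Syt1 and Syt4 differed by 0.07 ± 0.22 and 0.00 ± 0.13; Syt1 read -0.47 in mutant and -0.50 in wildtype pools 3 and 4. The vesicle proteins Rab3a, Syn1 and Syp differed by 0.14 ± 0.10, 0.05 ± 0.14 and -0.01 ± 0.09. Of the genes for channels, receptors and transmitter synthesis, Kcnc1, a fast potassium channel, was the single one tested, at 0.01 ± 0.12, and it passed the filter through mutant arrays alone.

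**Figure D3:**
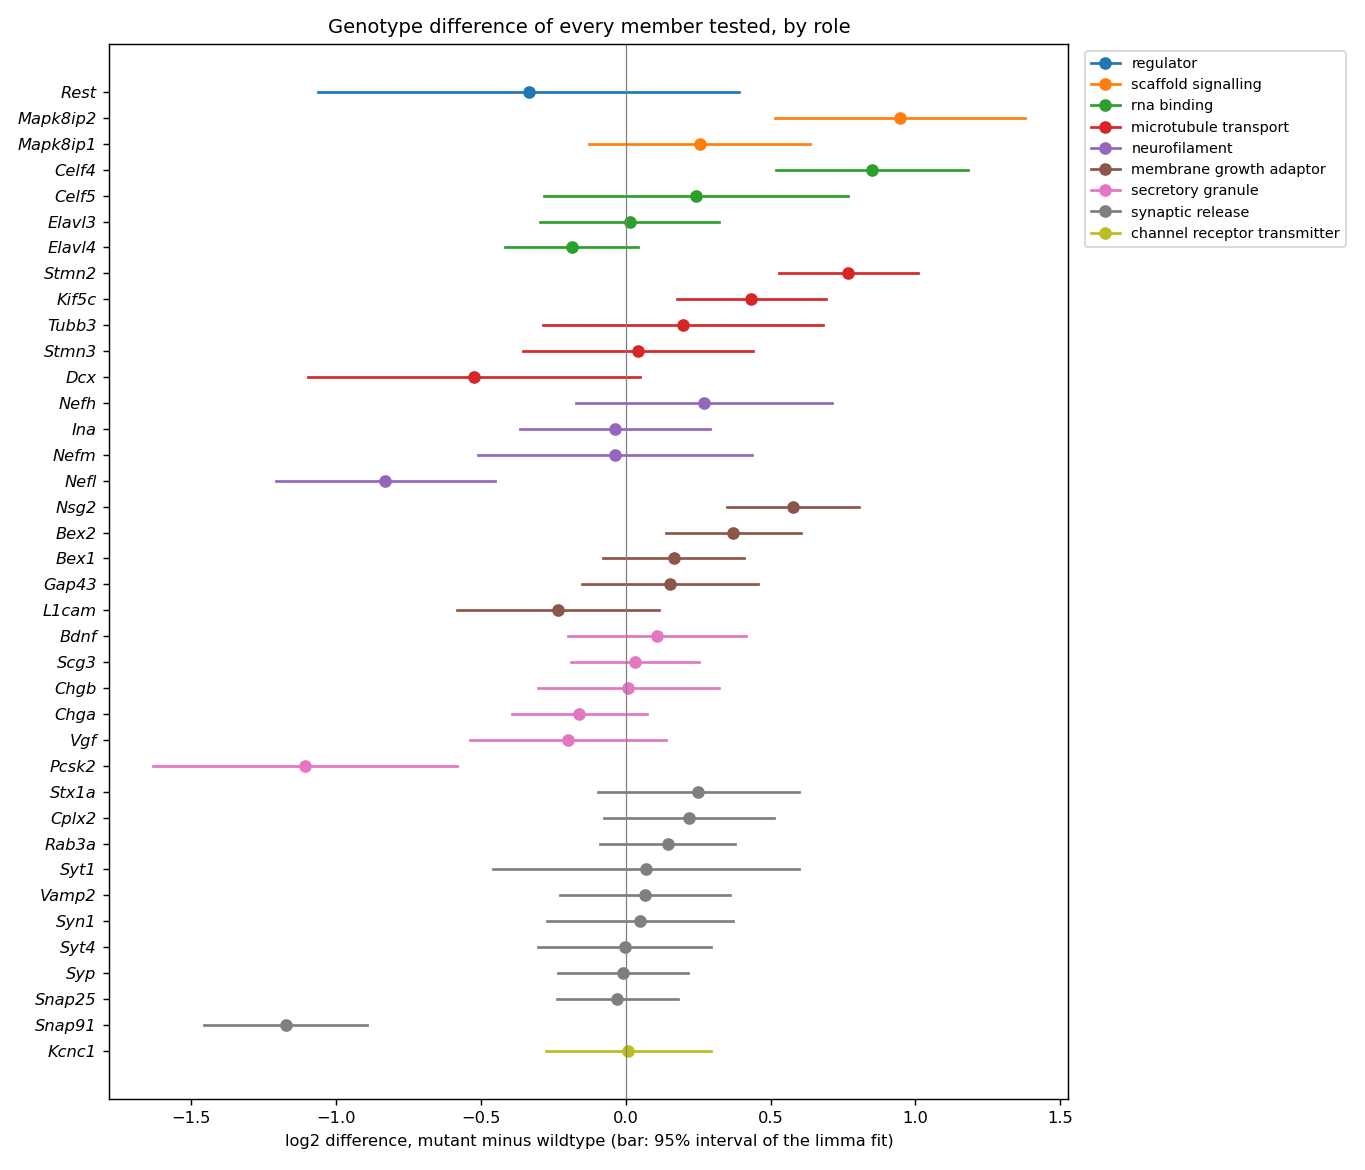
Log2 difference, mutant minus wildtype, with its 95% interval in the limma fit for each of the 38 members tested, grouped by role from the regulator at the top to the channels at the bottom. Intervals are not adjusted for the number of genes, and most cross 0; Snap91 at -1.17 and Pcsk2 at -1.11 lie farthest below 0, and Mapk8ip2 at 0.95 farthest above.

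The plot by role shows that the 9 genes whose intervals leave out 0 are spread over 7 roles, each of which also holds members whose intervals cross 0. The plot of probes by sample bears on how far a single probe can be read, since each gene's value above rests on its brightest one.

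**Figure D4:**
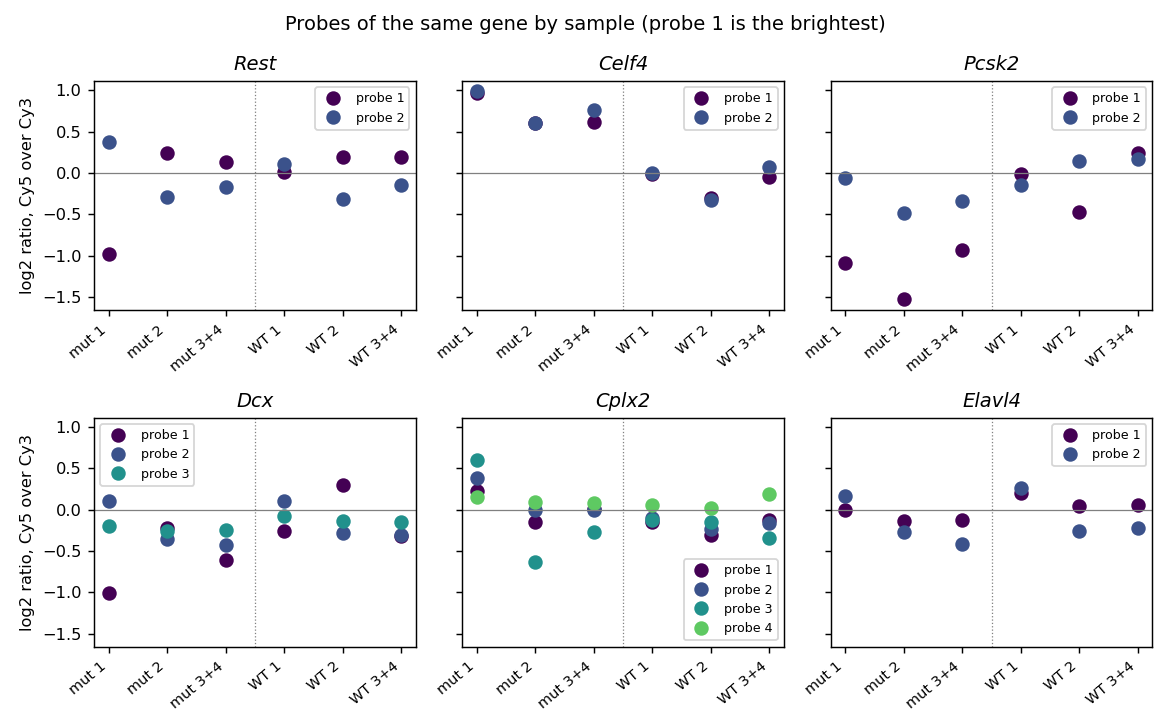
Log2 ratio by sample for each probe of Rest, Celf4, Pcsk2, Dcx, Cplx2 and Elavl4, mutant samples left of the dotted line and wildtype samples right of it. The Celf4 probes lie close together, at 0.61 and 0.76 where they part most (mutant pools 3 and 4), while the Rest probes part in mutant pool 1, at -0.98 and 0.37.

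Differences between paralogues of these families were compared in 13 pairs chosen after their values were seen, each by an exact two-sided permutation test over 3 against 3 samples, which cannot go below 0.1. In 7 pairs the groups did not overlap, which gives that smallest p of 0.1 and 0.186 after adjustment over the 13; for Stmn2 against Stmn3, Stmn3 was well above background on 2 of 4 wildtype arrays, and no value is given. Nefl minus Nefh averaged -1.10 log2 units in mutant samples and -0.0027 in wildtype samples. Celf4 minus Celf5 averaged 0.48 in mutant samples and -0.13 in wildtype samples. Mapk8ip1 minus Mapk8ip2 averaged -0.59 in mutant samples and 0.10 in wildtype samples. None of these passed after adjustment, a threshold that the design could not reach. The pairs reuse members described above, so their count is no separate result, and no share over other gene pairs is at hand.

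The remaining 7 of the 45 genes were too dim to test. Gria2, an AMPA receptor subunit, was well above background on none of the 8 arrays. Grin1, an NMDA receptor subunit, and Unc13a, which primes vesicles, were so on the wildtype pool 2 array alone, and Celf3 on wildtype arrays 2 and 4. Cplx1 was well above background on the pool 2 array of each group, Scg2 on mutant array 3 and wildtype array 2, and Gad1, which makes GABA, on mutant arrays 3 and 4 and wildtype array 2. Arrays with so few positive calls give these genes no usable difference.

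A further list held 42 other neuronal genes known as REST targets, of which 24 were tested. None passed the adjusted threshold by limma. At an unadjusted p under 0.05, 8 were higher and 1 was lower in mutant samples, against 4.46% and 2.78% of all genes. The list's median was 0.18 log2 units with 18 of 24 genes higher on average in mutant samples, against 50.5% of all genes. This list too was chosen with earlier results of these data known. Camkv, a kinase-like vesicle protein, read 0.75, 0.52 and 0.55 in mutant samples, against 0.11, 0.16 and -0.08 in wildtype samples, a difference of 0.54 ± 0.11 (adjusted p = 0.29). Calb1, a calcium-binding protein that the ureteric epithelium also expresses, differed by 0.48 ± 0.17. Tac1, the substance P precursor, differed by -0.30 ± 0.11, and Hcn2, a pacemaker channel, by -0.09 ± 0.09; Tac1 was well above background on 1 mutant array and 3 wildtype arrays.

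A kidney sort could also hold nerve and glial cells, and in bulk samples fewer cells of a type and less RNA per cell cannot be told apart. Of 16 peripheral neuron and glia markers, 9 were well above background on all arrays. Their summed Cy5 signal was 2984, 2696 and 2905 in mutant samples, against 2614, 3661 and 2668 in wildtype samples. The ranges overlapped through wildtype pool 2 alone, the array with the most probes above background, and the other wildtype samples lay below all mutant samples. None of the 10 tested passed in the limma fit, against 0.0441% of all genes. At an unadjusted p under 0.05 there were 0, against 7.24% of all genes, and 10 genes are too few to tell 0 from that share. The median difference of the 10 was 0.03 log2 units. S100b, a glial calcium-binding protein, differed by 0.28 ± 0.17, and Prph, the peripherin of peripheral neurons, by -0.25 ± 0.22.

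The summed stromal, ureteric and endothelial markers were higher in the mutant sample of all 3 pool pairs, with ranges that overlapped between the groups, and the summed progenitor markers were lower with no overlap. Stromal markers, all 12 well above background on all arrays, summed to 255000 to 329000 in mutant samples and 243000 to 274000 in wildtype samples. Of the 12, 11 were higher in mutant samples on average, against 50.5% of all genes. Their extremes were Col1a1 at 0.50 ± 0.18 and Foxd1 at 0.48 ± 0.24, against Tcf21 at -0.31 ± 0.32 and Postn at 0.10 ± 0.12. Ureteric markers, 12 of 12 detected, summed to 61600 to 82200 in mutant samples and 58800 to 68200 in wildtype samples, from Ret at 0.66 ± 0.23 and Calb1 to Cdh1 at -0.21 ± 0.26 and Krt8 at -0.24 ± 0.39. Endothelial markers, 12 of 12 detected, summed to 78600 to 109000 in mutant samples and 70500 to 82100 in wildtype samples. They ran from Cdh5 at 0.49 ± 0.25 and Flt1 at 0.35 ± 0.19 to Pecam1 at -0.16 ± 0.25 and Tek at -0.17 ± 0.38. Krt8, Pecam1 and Tek were low in mutant pool 1 alone, at -1.13, -0.73 and -1.11. In the other pool pairs their mutant sample was higher. Tcf21 read -1.06 in mutant pool 1. Macrophage markers, 11 of 11 detected, summed to 9400 to 14200 in mutant samples and 9740 to 13300 in wildtype samples, from C1qc at 0.27 ± 0.26 and Cx3cr1 at 0.19 ± 0.26 to Tyrobp at -0.17 ± 0.19 and Lyz2 at -0.38 ± 0.21. Nephron progenitor markers, 14 of 15 on all arrays, summed to 122000 to 135000 in mutant samples and 169000 to 170000 in wildtype samples. That sum is weighted toward bright genes, among them Cited1, which differed by -2.72 log2 units. The median difference of the 15 progenitor markers was -0.18 log2 units, and 4 were higher on average in mutant samples. The part of any of these in the differences of the REST targets was not tested.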

How the data were processed

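RNA (0.5 µg per pool) of 4 mutant and 4 wildtype pools of sorted nephron progenitors was hybridised to 8 Agilent arrays of 1 slide. The deposited scanner files give the median spot intensity in each dye, which the authors obtained, per the file headers, with version 10.7.3.1 of Agilent Feature Extraction. The deposited value table matched the log10 ratio of Cy5 over Cy3 in the scanner files (r at least 0.999999 on every array; column medians between 0 and 0.00483), so its scale and direction are known and its gene centring is none.

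From the intensities, log2 ratios were computed with limma 3.58.1 in R 4.3.3: normexp background correction (offset 50), loess within each array, control and outlier spots left out, spots averaged per probe. A probe was kept if 3 of the 4 arrays of either group, or more, flagged its Cy5 signal as well above background. Of 55681 probes, 30364 were kept; 27509 matched a symbol of the RefSeq table (GRCm38.p6). The brightest Cy5 probe stood for a gene, and genes with no symbol kept their accession.

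Pools 3 and 4 differed by 0.0891 (mutant) and 0.0832 (wildtype) log2 units, within the 0.0666 to 0.115 of repeated Cy3 measurements between arrays other than wildtype pool 2 (0.142 to 0.19 with it), and were counted as 1 sample. Groups were compared with lmFit and eBayes, with Benjamini-Hochberg adjustment over 22662 genes. Same-numbered samples deviated together (r of 0.495, 0.543 and 0.527 over those genes, against -0.454 to -0.0777 for other pairings), so numbers were taken to pair the samples, and the blocked p is given where it changes a call; the number is also the slide column. Fits were tested on simulated data. The number of arrays limits precision.

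Full values are given for Rest, for members with an unadjusted p under 0.05 in the plain or blocked fit, and for members whose groups do not overlap with a difference of at least 0.5; of other lists, genes past the adjusted threshold or otherwise the 2 most positive and 2 most negative are named, with Hdac1, Hdac2 and Six2 as checks; other genes are named by role. The members and lists were chosen with earlier results of these data known. Some marker genes that this rule names are not reported here. Promoters and their coordinates are RefSeq's.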

Additional observations from a re-analysis of the deposited data

How the results depend on the processing

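Over 22 alternatives each, the 12 fully described genes gave 237 unchanged verdicts, 8 that gained and 18 that lost the call, all 18 of the lost ones for Snap91 (-1.46 to -0.92), and 1 reversal, Rest, which ran from -0.55 (without mutant pool 2) to 0.054 (without mutant pool 1). Snap91 kept its call with 8 separate arrays (pools 3 and 4 taken as independent), with no filter, with the mean over probes and in the blocked fit without pool 2. Blocking by pool number gave 34 genes called; 8 separate arrays gave 257 genes and 8 members. Genes called numbered 5 with spike-in centring, 5 with trend and robust moderation, 1 from Cy5 alone, and 1 to 9 without single samples (1 without wildtype pools 3 and 4, 3 without mutant pools 3 and 4). Members called numbered 0 in limma fits of Agilent's processed signals, the deposited table, offset 10, median centring, scaling, spike-in centring, Cy5 alone, the filter on all 8 arrays, trend and robust moderation, and 0 without any single sample; the unadjusted count in the fit reported was 9. The members' median was 0.18 (processed signals and the deposited table), 0.11 (median centring), 0.17 (Cy5 alone, where all genes shifted to 0.128), -0.15 (spike-ins, where all genes shifted to -0.195) and 0.02 to 0.10 without single samples. Members wholly above wildtype numbered 6 to 11 without single samples (11 without mutant pool 2, 10 without wildtype pool 2 and 7 without wildtype pool 1); members wholly below numbered 4 to 6, and 1 from Cy5 alone. With fewer samples, more genes fail to overlap by construction. Blocked fits without each pool pair were chosen after seeing the data. The offset of 50 draws the log ratios of dim probes toward 0 by construction: the Snap91 difference was -1.33 with an offset of 10.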
